A study of Mus musculus with 6 samples.

Results

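Of the 10 genes described here, 5 are subunits of the transcription factor NF-kB (Rela, Rel, Relb, Nfkb1 and Nfkb2). The other 5 (Nfkbia, Nfkbie, Nfkbiz, Tnfaip3 and Tnip1) are grouped as its feedback inhibitors. All 10 were chosen by gene symbol and were found among the 16111 genes of the annotated expression table. The samples were macrophages cultured from the livers of C57BL/6 RCC mouse fetuses at E13.5 of gestation, 3 cultures from wild-type (WT) fetuses and 3 from fetuses deficient in Ahrr (genotype AhRR-/-), each numbered as a separate mouse within its genotype. Culture lasted 5 weeks for both groups, with 2% GM-CSF (a macrophage growth factor) in the medium, and the cells that did not adhere were taken for polyA RNA sequencing. Ahrr encodes the repressor of the aryl hydrocarbon receptor, a transcription factor activated by small molecules, and the design asks which transcripts differ without it. How the Ahrr allele was made, and whether fetuses were pooled for a culture, is not given in the sources used here. No stimulus that activates NF-kB is named in the labels, so the values describe cells in culture medium.

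NF-kB is a family of dimers. RelA, c-Rel and RelB carry activating domains, while Nfkb1 and Nfkb2 encode the precursors p105 and p100, which are cut to the DNA-binding subunits p50 and p52. In resting cells IkB proteins hold the dimers in the cytoplasm, and a signal from Toll-like or cytokine receptors activates the IKK kinases, which mark IkB for destruction and release the dimer to the nucleus. Several genes that NF-kB switches on, among them Nfkbia, Nfkbie and Tnfaip3, encode its own inhibitors, a negative feedback that ends the response in macrophages.

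This feedback runs through kappa-B sites, so the DNA before the start sites of the inhibitors is shown first, with Rela for comparison. The sequences are from RefSeq (GRCm38.p6), read from 5′ to 3′ toward the transcription start, and capitals mark matches to the kappa-B consensus on either strand, where overlapping matches run together. Annotated exons were left out, so the stretches of Tnfaip3 and Rela hold 137 and 192 bases and those of Nfkbia and Tnip1 hold 250 bases.
Tnfaip3, chr10:19015411-19015547, minus strand: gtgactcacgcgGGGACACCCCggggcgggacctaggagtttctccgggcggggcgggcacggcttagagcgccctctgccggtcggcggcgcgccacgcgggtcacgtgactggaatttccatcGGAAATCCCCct
Nfkbia, chr12:55492648-55492897, minus strand: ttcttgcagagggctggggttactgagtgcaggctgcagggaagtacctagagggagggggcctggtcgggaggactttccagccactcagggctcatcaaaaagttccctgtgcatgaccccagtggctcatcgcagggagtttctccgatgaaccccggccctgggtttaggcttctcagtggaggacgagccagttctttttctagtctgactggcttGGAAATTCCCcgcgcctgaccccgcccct
Tnip1, chr11:54962941-54963190, minus strand: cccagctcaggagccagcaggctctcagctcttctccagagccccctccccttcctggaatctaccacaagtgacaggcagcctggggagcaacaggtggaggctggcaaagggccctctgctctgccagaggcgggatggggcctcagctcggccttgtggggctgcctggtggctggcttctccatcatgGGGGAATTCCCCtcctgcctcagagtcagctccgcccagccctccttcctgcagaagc
Rela, chr19:5637291-5637482, plus strand: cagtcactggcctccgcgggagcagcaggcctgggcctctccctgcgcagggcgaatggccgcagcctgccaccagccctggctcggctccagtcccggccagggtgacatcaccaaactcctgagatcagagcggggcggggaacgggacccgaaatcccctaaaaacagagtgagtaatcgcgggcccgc
The match of Tnfaip3 nearest its start begins 12 bases before it and reads GGAAATCCCC, and a further match, GGGACACCCC, begins 125 bases before it. Nfkbia has GGAAATTCCC beginning 29 bases before the start, and Tnip1 has overlapping matches that begin 58, 57 and 56 bases before it. The Rela window held no match. All starts here are those of RefSeq. In the GENCODE gene models, used for the gene coordinates below, the Tnfaip3 stretch lies inside the gene (chr10:19000910-19015657).

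RefSeq windows were found for 7 of the 10 genes, 10 windows in all. They were absent from the table used for Relb, Nfkb1 and Nfkbiz. The kappa-B consensus occurred within 250 bases before the start in 8 of these 10 windows and in 6 of the 7 genes (Rel, Nfkb2, Nfkbia, Nfkbie, Tnfaip3 and Tnip1), against 3.90% of all 32851 windows of the same length. Several of the 10 genes are known to be switched on by NF-kB, so a share above that of all windows follows from the choice of genes. Nfkb2 had a match in each of its 3 windows, which lie mostly in annotated exons and are not shown. Tnfaip3 had no match in its second window. The motif TNGCGTG, which holds the core bound by the aryl hydrocarbon receptor, was searched on both strands. It occurred in 0 of the 10 windows, against 4.10% of all windows, a share at which 0 of 10 is not unusual. The shorter core GCGTG was not counted, and it is present in windows of Tnfaip3, Rel, Nfkb2 and Nfkbie. In the Tnfaip3 stretch above it reads cacgc, on the opposite strand. These are matches of letters and were not tested as sites.

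Facts of the libraries that bear on the values come next. Total counts lay between 3556106 (Ahrr-deficient replicate 1) and 41668336 (Ahrr-deficient replicate 2), an 11.7-fold range. WT replicate 2 carried 5.28% of its counts in the ribosomal RNA gene CT010467.1, against at most 0.0679% elsewhere, so levels are given as TMM-scaled CPM, that is read counts relative to the library total corrected by TMM factors, which lower the weight of such a gene. The first principal component (55.5% of the variance) separated the genotypes and the second (20.4%) separated Ahrr-deficient replicate 1. Ahrr itself had 4.597, 4.74 and 5.21 TMM-scaled CPM in WT replicates 1, 2 and 3 and 2.23, 2.47 and 1.18 in the Ahrr-deficient replicates. It was thus lower in all 3 Ahrr-deficient libraries but not at 0, with a log2 change of -1.21 (edgeR adjusted p 0.0151, SE 0.26). That call was lost without WT replicate 1 (edgeR adjusted p 0.0631) and without WT replicate 3 (edgeR adjusted p 0.0502), and after thinning all libraries to the smallest total (edgeR adjusted p 0.102, log2 fold change -1.35).

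The macrophage label was checked against 10 markers, all with at least 3 counts in every library. Their summed level was 24051 to 26795 TMM-scaled CPM in WT and 15168 to 22574 in Ahrr-deficient libraries. Csf1r, the receptor of the growth factor M-CSF, was called lower, with a log2 fold change of -0.65 (SE 0.17, adjusted p 0.0304 by edgeR). Markers of several other cell types were low, the dendritic cell list not among them. No mast cell or lymphocyte marker was in the table. The sums of the hepatocyte, megakaryocyte and fibroblast or endothelial lists reached at most 3.00 TMM-scaled CPM in every library. The neutrophil list (2 of 8 genes in the table, with S100a9, Ly6g, Ngp, Camp, Elane and Mpo not in it) summed to 8.74 to 10.2 in WT and 1.45 to 4.18 in Ahrr-deficient libraries. The erythroid list (3 of 6 genes in the table, which did not hold the globin genes Hba-a1 and Hbb-bt) summed to 14.9 to 22.5 and 2.75 to 4.81, and the dendritic cell list (3 of 6) to 56.4 to 67.8 and 69.9 to 91.3. The megakaryocyte list held 1 gene in the table, Itga2b, at 2.74 to 3.00 in WT and 1.18 to 1.95 in Ahrr-deficient libraries. Lyz2 made up most of the macrophage sum, Epor nearly all of the erythroid and Csf3r most of the neutrophil sum. Clec9a made up most of the dendritic cell sum and rose from a mean of 56.1 to 79.1 TMM-scaled CPM (edgeR adjusted p 0.0256). The rise of that sum came from Clec9a alone. Zbtb46, of the same list, went from a mean of 5.64 to 4.31, without overlap of the groups, and was not called. Xcr1 was also lower in mean, with too few counts to be tested. The macrophage, neutrophil, erythroid, dendritic cell and megakaryocyte sums thus moved with genotype, as every fold change below does, and their part in those was not tested. In bulk samples, fewer cells of a type and less RNA per cell cannot be told apart.

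Per kilobase of annotated exons, Nfkbia was the most abundant of the 10 and Nfkbie the least, in both genotypes. Exon length is that of all annotated exons of a gene merged, which can exceed the length of any single transcript. The order between genes thus depends in part on the annotation. Nfkb1, with 12061 bases, and Rela, with 3072, had WT means of 97.5 and 101.3 TMM-scaled CPM. On the RPKM scale (TMM-scaled CPM divided by exon length in kilobases), the WT means ran from Nfkbia with 54.7 ± 4.98 (SD, n = 3), through Rela with 33.0 ± 0.752, Tnip1 with 18.9 ± 0.701, Rel with 15.0 ± 0.470, Nfkb2 with 12.8 ± 0.613, Nfkb1 with 8.08 ± 0.774, Tnfaip3 with 7.04 ± 1.67, Relb with 6.10 ± 0.168 and Nfkbiz with 3.25 ± 0.694, to Nfkbie with 2.09 ± 0.190. Neighbours in that order did not overlap between libraries except Nfkb1 with Tnfaip3 and Tnfaip3 with Relb. In Ahrr-deficient cells the order of mean RPKM was the same but for Tnfaip3, at 3.58 ± 0.379, which stood below Relb, at 4.63 ± 0.378. The overlapping neighbours there were Tnip1 with Rel and Tnfaip3 with Nfkbiz.

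**Figure D1:**
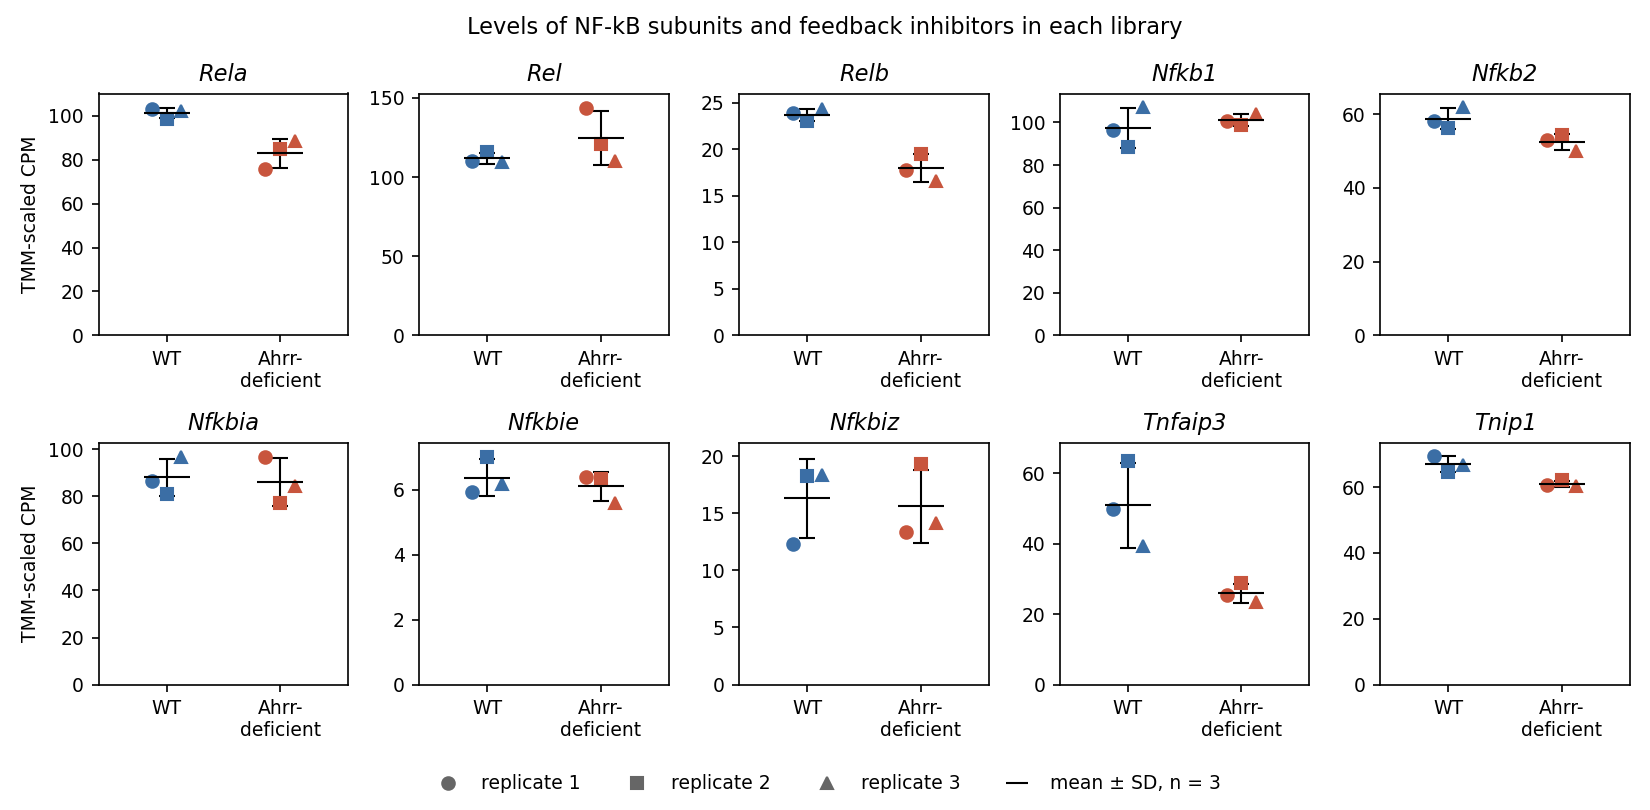
TMM-scaled CPM (linear axis from 0) of the 10 genes in each of the 6 libraries. Symbols mark the replicate number, horizontal lines the mean and bars the SD (n = 3). Tnfaip3 lies between 39.4 and 63.4 in WT and between 23.5 and 28.9 in Ahrr-deficient libraries.

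Of the 10 genes, 3 were lower in Ahrr-deficient cells (Tnfaip3, Relb and Rela) and 0 were higher at an edgeR adjusted p under 0.05, and the counts were the same at an unadjusted p under 0.05. DESeq2 and limma-voom also called 0 higher, and DESeq2 called 1, Tnfaip3, lower. Among all 11408 tested genes 19.6% were called, 9.62% higher and 9.95% lower. The libraries of the 2 genotypes did not overlap for 5 of the 10, all 5 lower in Ahrr-deficient cells, where 38.8% of all tested genes did not overlap, 19.2% higher and 19.6% lower. That one-sided count depends on the scaling. In CPM without TMM factors 3 of the 10 did not overlap, 2 lower (Relb and Tnfaip3) and 1 higher (Rel), against 36.6% of all tested genes, 23.9% higher and 12.8% lower. Changes were small: the median absolute log2 fold change was 0.14 for the 10 genes and 0.22 for all tested genes, and 0 of the 10 reached 1. The median log2 fold change was -0.09 for the 10 genes and 0.01 for all tested genes.

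Rela (ENSMUSG00000024927.7, chr19:5637483-5648130), the main activating subunit of inflammatory NF-kB, had 103, 98.7 and 102 TMM-scaled CPM in WT replicates 1, 2 and 3 and 75.7, 84.8 and 88.4 in the Ahrr-deficient replicates. Every Ahrr-deficient library was below every WT library, and replicate 1 was the lowest. Rela fell by 0.28 on the log2 scale (SE 0.08, 95% interval -0.47 to -0.10, edgeR adjusted p 0.0424), from a mean of 101.3 ± 2.31 to 83.0 ± 6.52 TMM-scaled CPM (SD, n = 3). Without TMM scaling the Rela libraries overlapped. With fewer libraries the fold change stayed between -0.34 and -0.24 while 5 of the 6 fits that left out 1 library no longer passed the threshold: the edgeR adjusted p was 0.178, 0.106 and 0.118 without WT replicates 1, 2 and 3, and 0.0932 and 0.0585 without Ahrr-deficient replicates 2 and 3.

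Relb (ENSMUSG00000002983.17, chr7:19606217-19629438), the partner of p52 in the non-canonical branch and itself a target of NF-kB, had 23.9, 23.0 and 24.3 TMM-scaled CPM in WT and 17.8, 19.5 and 16.6 in Ahrr-deficient replicates 1, 2 and 3. The groups did not overlap, and the WT libraries lay within 1.06-fold of each other. Relb fell by 0.39 on the log2 scale (SE 0.10, 95% interval -0.62 to -0.15, edgeR adjusted p 0.0327). With 1 library left out the log2 fold change lay between -0.48 and -0.33. The call was lost without WT replicates 1, 2 and 3 (edgeR adjusted p 0.132, 0.0782 and 0.0944) and without Ahrr-deficient replicate 3 (edgeR adjusted p 0.0978).

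Rel (ENSMUSG00000020275.9, chr11:23736847-23770970), which encodes c-Rel, an activating subunit abundant in blood cells, had 110.4, 116 and 109 TMM-scaled CPM in WT and 144, 121 and 110.2 in Ahrr-deficient replicates 1, 2 and 3. The groups overlapped, though not without TMM scaling, where all 3 Ahrr-deficient libraries were higher, and Ahrr-deficient replicate 1 was the highest of the 6 libraries. The log2 fold change was 0.15 (SE 0.10, 95% interval -0.08 to 0.38, edgeR adjusted p 0.320).

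The precursor genes did not pass the test. Nfkb1 (ENSMUSG00000028163.17, chr3:135584655-135691547) had 96.6, 88.6 and 107 TMM-scaled CPM in WT and 100.8, 98.7 and 104 in Ahrr-deficient replicates 1, 2 and 3, so that the Ahrr-deficient libraries lay inside the WT range. Its log2 fold change of 0.05 (SE 0.09, 95% interval -0.15 to 0.25) had an edgeR adjusted p of 0.703. Nfkb2 (ENSMUSG00000025225.14, chr19:46304320-46312385) had 58.1, 56.3 and 61.9 TMM-scaled CPM in WT and 52.9, 54.2 and 49.999 in the Ahrr-deficient replicates. These groups did not overlap, the lowest WT library standing just above the highest Ahrr-deficient one, but they overlapped without TMM scaling, and the log2 fold change of -0.17 (SE 0.08, 95% interval -0.36 to 0.02) had an edgeR adjusted p of 0.190. Exons of AC114539.1 and Psd overlap Nfkb2 on the opposite strand, and whether counting was by strand is not given in the sources used here, so the Nfkb2 value is uncertain.

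Rela and Relb were called lower in the main fit, but in only 4 and 5 of the 15 alternative fits, and the other subunits were not called. The balance among subunits was then compared within each library. This needs no scaling between libraries but does not correct for GC content, described below. The shares and ratios use the same counts as the fold changes, so they are no separate support for them. The 5 shares are parts of the same sum, so a lower Rela share by itself raises the others. Their sizes also depend on the merged exon lengths used for RPKM. Rela made up 44.6%, 43.9% and 43.5% of the summed RPKM of the 5 subunits in WT replicates 1, 2 and 3, and 36.1%, 40.1% and 42.7% in the Ahrr-deficient replicates. Rel made up 19.7%, 21.2% and 19.1% in WT and 28.1%, 23.5% and 21.9% in Ahrr-deficient libraries. Both shares separated the genotypes, Rela toward lower and Rel toward higher values, with the widest gap in Ahrr-deficient replicate 1. The ratio of Rel to Rela RPKM was 0.455 ± 0.0246 in WT and 0.626 ± 0.138 in Ahrr-deficient libraries (SD, n = 3, exact two-sided permutation p 0.1, Benjamini-Hochberg adjusted p 0.118 over 13 shares and ratios). A p of 0.1 is the smallest that 3 against 3 libraries can give, so no share or ratio could pass 0.05.

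Relb took 8.14 ± 0.0464% of subunit RPKM in WT and 6.79 ± 0.487% in Ahrr-deficient libraries, and Nfkb1 took 10.8 ± 0.795% and 12.3 ± 0.473% (SD, n = 3, exact permutation p 0.1 for each). Nfkb2 kept between 16.2% and 17.6% in all 6 libraries (exact permutation p 0.6). Relative to Nfkb2, the partner with which RelB pairs, Relb was lower in each Ahrr-deficient library, with a ratio of 0.476 ± 0.0115 in WT and 0.405 ± 0.0179 in Ahrr-deficient libraries (SD, n = 3, exact permutation p 0.1). The difference between the log2 fold changes of Rel and Rela was 0.43. It was 0.28 without Ahrr-deficient replicate 1 and 0.13 with offsets for GC content, described below.

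**Figure D2:**
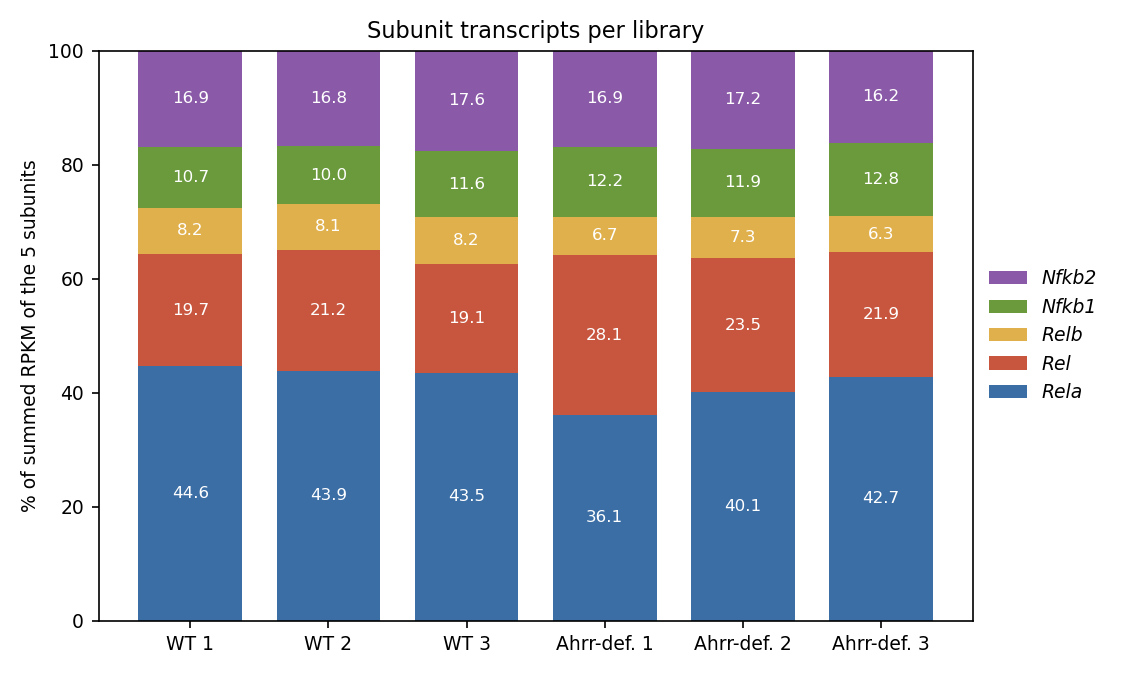
Share of each subunit in the summed RPKM of the 5 NF-kB subunits, as percent, for each library. The sizes of the shares depend on the merged exon lengths used for RPKM. Rela takes the largest share in all 6 libraries, 43.5% to 44.6% in WT and 36.1% to 42.7% in Ahrr-deficient libraries.

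Among the inhibitors, Tnfaip3 (ENSMUSG00000019850.11, chr10:19000910-19015657) stood apart. It encodes A20, an enzyme that edits ubiquitin chains on signalling proteins and shuts off the signal from receptors to IKK. Tnfaip3 had 49.9, 63.4 and 39.4 TMM-scaled CPM in WT replicates 1, 2 and 3 and 25.3, 28.9 and 23.5 in the Ahrr-deficient replicates. All 3 Ahrr-deficient libraries were below all 3 WT libraries, and WT varied more, with a 1.61-fold range against 1.23-fold. Tnfaip3 fell by 0.95 on the log2 scale (SE 0.17, 95% interval -1.33 to -0.57, edgeR adjusted p 0.00716), from a mean of 50.9 ± 12.0 to 25.9 ± 2.74 TMM-scaled CPM (SD, n = 3). The fitted level fell by 48.3%, and the 95% interval of that change ran from -60.2% to -32.7%. The call held in all 15 alternative fits, with log2 fold changes from -1.11 to -0.78 and adjusted p-values from 3.56e-12 to 0.0362. The gene was counted 91 times in the shallowest library and 1251 times in the deepest.

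Tnip1 (ENSMUSG00000020400.17, chr11:54910785-54962917), which encodes a protein that binds A20 and ubiquitin chains, had 69.5, 64.6 and 66.8 TMM-scaled CPM in WT and 60.7, 62.1 and 60.3 in Ahrr-deficient replicates 1, 2 and 3. The groups did not overlap, but the gap was narrow and they overlapped without TMM scaling, and the log2 change of -0.14 (SE 0.08, 95% interval -0.31 to 0.04) had an edgeR adjusted p of 0.242. The ratio of Tnip1 to Tnfaip3 RPKM was 2.80 ± 0.693 in WT and 4.84 ± 0.429 in Ahrr-deficient libraries (SD, n = 3, exact permutation p 0.1).

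Nfkbia (ENSMUSG00000021025.8, chr12:55489410-55492647) encodes IkB-alpha, the fast cytoplasmic inhibitor whose resynthesis ends a response. It had 86.3, 81.1 and 96.8 TMM-scaled CPM in WT and 96.9, 77.0 and 84.6 in Ahrr-deficient replicates 1, 2 and 3. The highest and the lowest of the 6 values were both Ahrr-deficient, with a log2 change of -0.05 (SE 0.11, 95% interval -0.29 to 0.19, edgeR adjusted p 0.793). The ratio of Tnfaip3 to Nfkbia RPKM was 0.129, 0.174 and 0.0906 in WT and 0.0583, 0.0835 and 0.0618 in Ahrr-deficient replicates. Every Ahrr-deficient library was below every WT library in this ratio (exact permutation p 0.1, the smallest possible). Both genes carry a kappa-B match close to the RefSeq start, shown above. The part of these matches in the levels was not tested.

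Nfkbie (ENSMUSG00000023947.7, chr17:45555703-45563169) encodes IkB-epsilon, a slower cytoplasmic inhibitor. It had 5.92, 7.02 and 6.17 TMM-scaled CPM in WT and 6.40, 6.32 and 5.60 in Ahrr-deficient replicates 1, 2 and 3, on 23 counts in the shallowest library. Nfkbiz (ENSMUSG00000035356.16, chr16:55811375-55838899) encodes IkB-zeta, a nuclear relative that acts on a later set of target genes. It had 12.3, 18.3 and 18.4 TMM-scaled CPM in WT and 13.4, 19.3 and 14.1 in the Ahrr-deficient replicates. Both genes overlapped between genotypes, and Nfkbiz varied as much within WT (1.49-fold) as within Ahrr-deficient libraries (1.44-fold). The log2 fold change was -0.04 for Nfkbie (edgeR adjusted p 0.960, SE 0.16) and 0.05 for Nfkbiz (edgeR adjusted p 0.885, SE 0.20). The 95% interval for Nfkbiz, -0.40 to 0.50, does not exclude a moderate change either way.

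GC content of the transcripts moved with the fold changes and bears on the smaller ones. Over all tested genes with a known GC content (11394 of 11408) the log2 fold change was lower at higher GC content (Spearman -0.28 across genes, a description, since genes are not independent), from a median of 0.15 in the lowest decile to -0.17 in the highest. Rela (59.4% GC), Nfkb2 (59.4%) and Tnip1 (57.8%) lie in the highest decile and Relb (56.8%) in the ninth, while Rel (42.5%) and Nfkb1 (44.9%) lie in the second and the third decile. With offsets for GC content, an alternative chosen after seeing the data, the log2 fold change was -0.10 for Rela (edgeR adjusted p 0.262), -0.26 for Relb (edgeR adjusted p 0.125) and 0.03 for Rel (edgeR adjusted p 0.821). Nfkb2 and Tnip1 each came to 0.02, so that their sign turned. Tnfaip3 (47.1% GC) came to -0.997 (edgeR adjusted p 0.00804), as large as without the offsets.

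**Figure D3:**
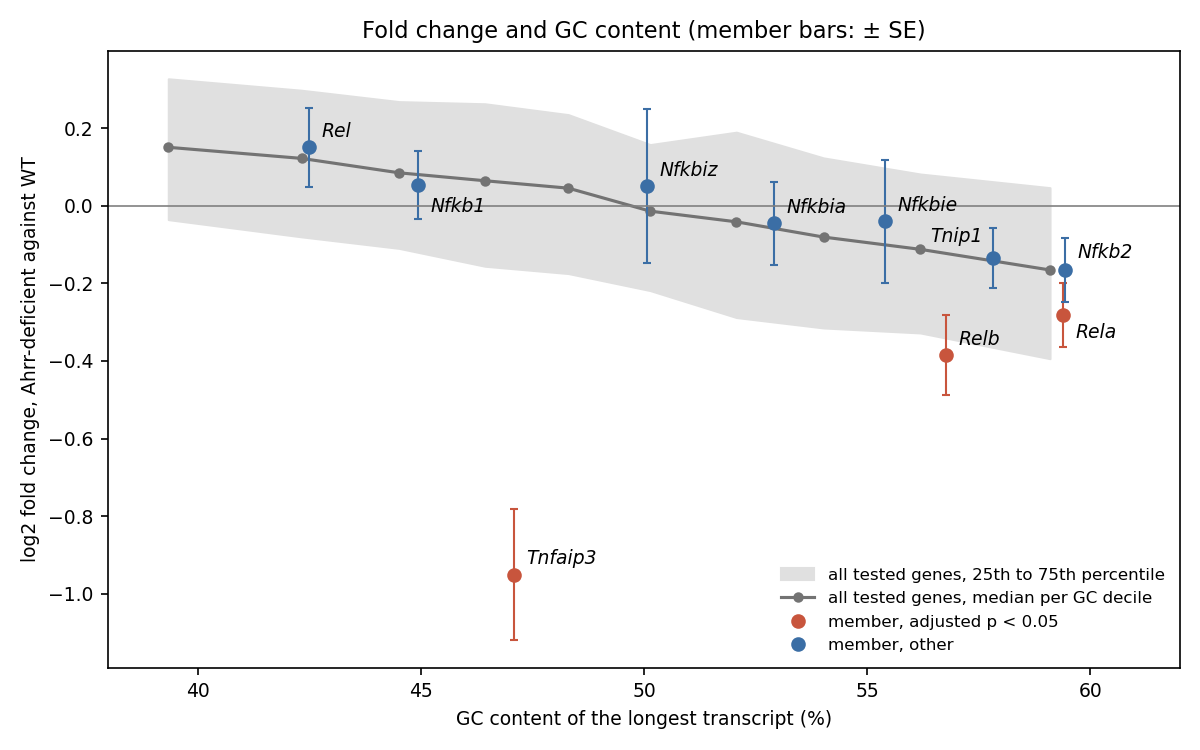
Log2 fold change (Ahrr-deficient against WT) of the 10 genes against the GC content of the longest transcript (percent), with SE bars. The grey line gives the median of all tested genes in each decile of GC content and the band their 25th to 75th percentiles; Tnfaip3 and Relb lie below the 25th percentile of their decile, and Rela above it.

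**Figure D4:**
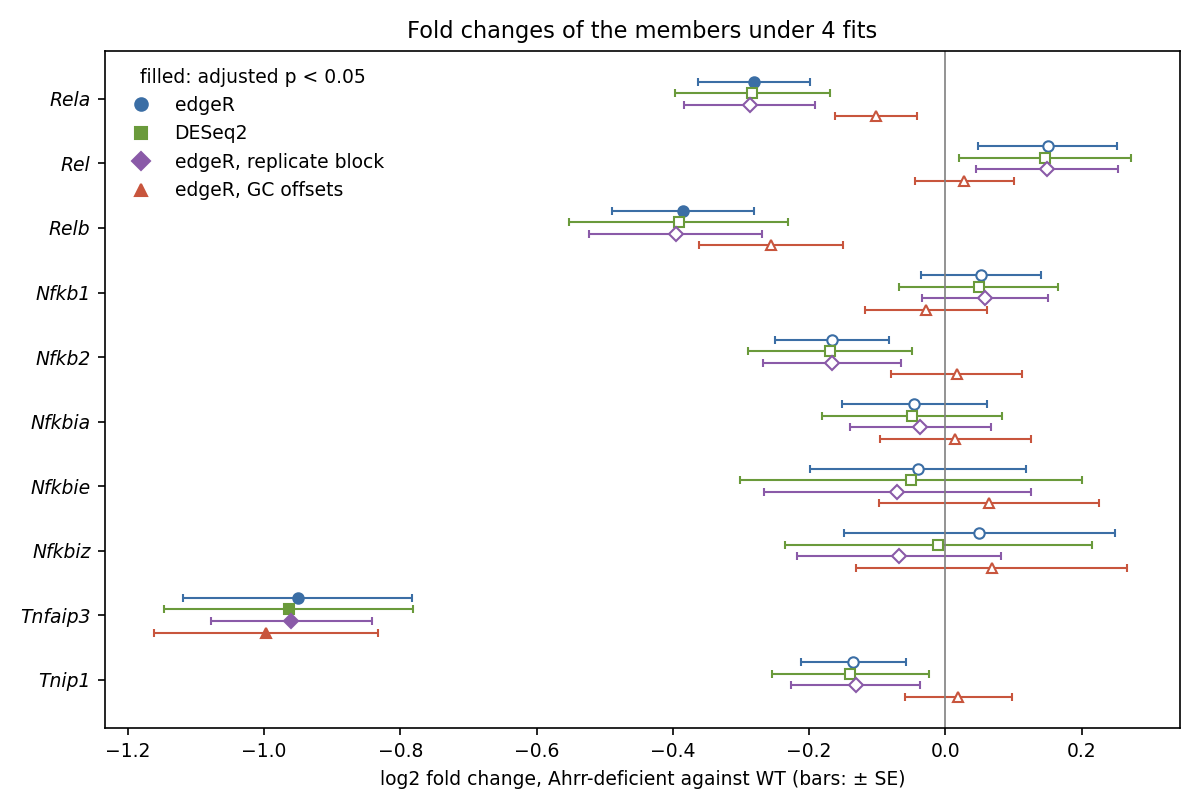
Log2 fold changes of the 10 genes (points, with SE bars) from edgeR, DESeq2, edgeR with the replicate number as a block, and edgeR with GC offsets. Filled symbols have an adjusted p under 0.05: Tnfaip3 is filled in all 4, Rela and Relb in edgeR alone.

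Genes with the most similar pattern to each called gene were then listed. By Pearson correlation of log2 CPM over 6 libraries, a description that depth and genotype enter, Hgsnat (0.997) was among the closest to Tnfaip3, and 139 tested genes exceeded 0.95. The closest to Rela were Usf2 (0.998) and Parp10 (0.997), with 203 genes above 0.95, and the closest to Relb were Arfip2 (0.997) and Ppp1r32 (0.992), with 75 genes above it. Among the 10 genes themselves the highest correlation was that of Relb with Nfkb2 (0.94) and the lowest that of Rela with Rel (-0.85). Depth and genotype enter these as well. Relb (56.8% GC) and Nfkb2 (59.4%) are close in GC content, while Rela (59.4%) and Rel (42.5%) are far apart. The part of GC content in these correlations was not tested.

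The rest of the pathway was read by role. Of 3 further IkB-type genes (Nfkbib, Nfkbid and Bcl3), 1 fell and 0 rose by edgeR, DESeq2 or limma-voom, where edgeR called 19.6% of all tested genes. The counts for these 3 were the same at an unadjusted edgeR p under 0.05. The median log2 fold change was -0.17 for these 3 genes, 0.06 for the genes of IKK activation, 0.02 for other brakes and 0.11 for target genes, against 0.01 for all tested genes. Nfkbid, which encodes the nuclear protein IkB-NS, had 19.1, 31.6 and 24.7 TMM-scaled CPM in WT and 11.1, 8.49 and 8.55 in Ahrr-deficient replicates 1, 2 and 3. The groups did not overlap, and the log2 change of -1.45 (edgeR adjusted p 0.00310, SE 0.20) was larger in size than that of any of the 10 genes. The call held in all 15 alternative fits. Nfkbib and Bcl3 overlapped between genotypes (edgeR adjusted p 0.736 and 0.464).

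Of 31 genes that carry the signal to IKK or make up IKK and its ligases, 3 rose and 2 fell, or 16.1%, near the 19.6% of all tested genes. Ripk2, a kinase downstream of the NOD receptors, rose from 17.2 ± 2.28 to 31.0 ± 5.30 TMM-scaled CPM (SD, n = 3), with a log2 change of 0.89 (edgeR adjusted p 0.00594, SE 0.15) that held in all 15 alternatives. Ikbke, an IKK-related kinase, fell from 271 ± 24.4 to 169 ± 37.1 TMM-scaled CPM (SD, n = 3), with a log2 change of -0.69 (edgeR adjusted p 0.0164, SE 0.15). Its call was lost without WT replicate 1, WT replicate 3 or Ahrr-deficient replicate 3 (edgeR adjusted p 0.0539, 0.0574 and 0.0573). Myd88, the adaptor of Toll-like receptors, rose by 0.46 and Fbxw11, a ubiquitin ligase for IkB, by 0.29, while Rnf31, a catalytic subunit of the linear ubiquitin ligase, fell by 0.33 on the log2 scale (edgeR adjusted p 0.0435, 0.0329 and 0.0342). Of these 3, leaving out each library in turn kept the call only without Ahrr-deficient replicate 1, and the adjusted p otherwise reached 0.155, 0.146 and 0.146. Exons of other genes overlap Myd88 and Ikbke on the opposite strand and Rnf31 on the same strand, so their counts are uncertain. The core IKK genes Ikbkb, Ikbkg and Chuk were not called.

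Of 16 other brakes on the pathway, 1 fell and 0 rose by edgeR, or 6.25%, against 19.6% of all tested genes. At an unadjusted edgeR p under 0.05, 1 of the 16 was lower and 3 were higher. Among all 11408 tested genes 1990 were lower and 2097 higher at that threshold. DESeq2 called 0 of the 16 brakes higher and limma-voom 1. Zc3h12a, which encodes Regnase-1, an RNase that cuts inflammatory mRNAs, had 62.9, 64.9 and 57.9 TMM-scaled CPM in WT and 37.9, 35.5 and 35.8 in Ahrr-deficient replicates 1, 2 and 3. The groups were far apart relative to their spread, and the log2 change of -0.77 (edgeR adjusted p 0.00173, SE 0.09) held in all 15 alternatives. The deubiquitinase genes Cyld, Otud7b and Otulin were not called (edgeR adjusted p 0.318, 0.869 and 0.437).

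Textbook targets of NF-kB did not share a direction. Of 42 listed, 11 were not in the table and 8 had too few counts to be tested. Of the 23 tested, 4 rose and 4 fell by edgeR, or 34.8%. Among all tested genes 19.6% were called, 9.62% higher and 9.95% lower. Cd83, a maturation marker, had 57.3, 61.8 and 48.3 TMM-scaled CPM in WT and 22.3, 16.2 and 16.5 in Ahrr-deficient replicates 1, 2 and 3, with a log2 change of -1.66 (edgeR adjusted p 6.59e-04, SE 0.14). Il1b, the cytokine interleukin-1 beta, had 242, 319 and 193 in WT and 131, 67.9 and 74.3 in the Ahrr-deficient replicates, with a log2 change of -1.50 (edgeR adjusted p 0.00658, SE 0.26). Neither gene overlapped between genotypes. Ier3, an early response gene, and Ebi3, a cytokine subunit, fell by 0.90 and 0.86 on the log2 scale (edgeR adjusted p 0.0132 and 0.00771), and Ier3 lost its call without Ahrr-deficient replicate 2 (edgeR adjusted p 0.0523).

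Cd80, a costimulatory ligand, moved the other way, with 13.8, 15.4 and 10.7 TMM-scaled CPM in WT and 31.5, 29.6 and 26.1 in the Ahrr-deficient replicates. Its log2 fold change was 1.11 (edgeR adjusted p 0.00240, SE 0.14), and the groups were well apart. The cytokine gene Tnf rose from 1.36 ± 0.386 to 3.48 ± 1.39 TMM-scaled CPM (SD, n = 3), and its log2 fold change was 1.43 (edgeR adjusted p 0.0181, SE 0.33). Both it and Ccl2 rest on few reads, with 7 counts for Tnf and 4 for Ccl2 in WT replicate 3. The chemokine gene Ccl2 rose from 1.76 ± 1.06 to 6.42 ± 3.51 (SD, n = 3), and its log2 fold change was 1.93 (edgeR adjusted p 0.0197, SE 0.45). Bcl2a1d, of an anti-apoptotic family with near-identical copies that make its count uncertain, rose by 0.77 on the log2 scale (edgeR adjusted p 0.0245). In the fits without 1 library, Ccl2 and Bcl2a1d kept their calls only without Ahrr-deficient replicate 1, with adjusted p-values up to 0.104 and 0.0989 in the others. Tnf kept its call without Ahrr-deficient replicate 1 or 3 and reached an adjusted p of 0.120 without Ahrr-deficient replicate 2. Exons overlap Il1b (Il1bos) and Ebi3 (Gm16712) on the opposite strand. Cd80, Cd83, Il1b and Ebi3 kept their calls in all 15 alternatives.

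**Figure D5:**
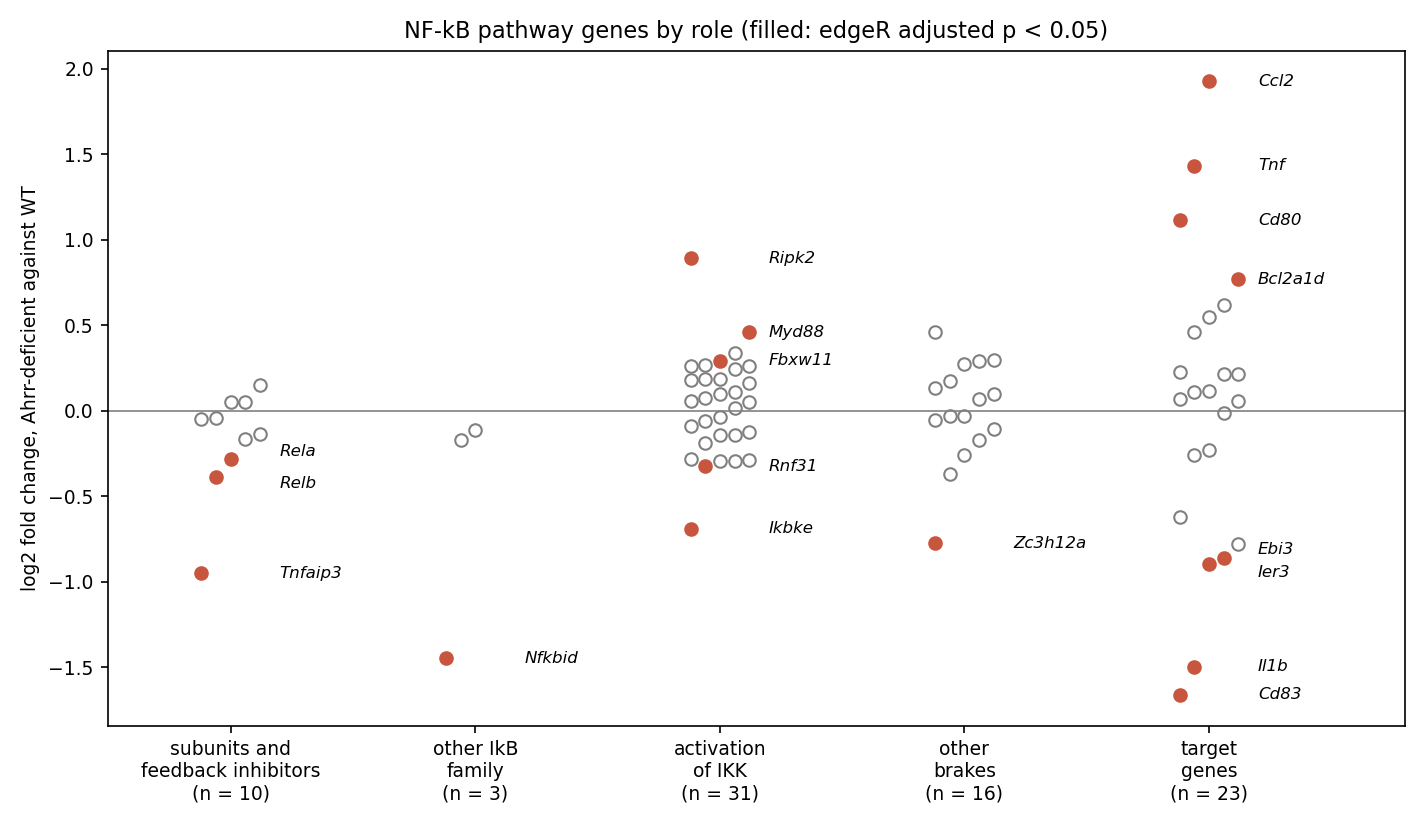
Log2 fold changes (Ahrr-deficient against WT) of the tested NF-kB pathway genes by role, 1 point a gene and n the number tested. Filled points have an edgeR adjusted p under 0.05 and are named; they run from -1.66 (Cd83) to 1.93 (Ccl2), both in the target genes.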

How the data were processed

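The authors deposited raw read counts per feature (53465 features, without identifiers) and a normalized signal per gene with identifiers and symbols (16111 genes). Per the submitters' processing notes, tools were CASAVA 1.8.2, fastp 0.20.0, STAR 2.7.10b, SAMtools 1.16.1, R 4.3.1 and DESeq2 1.40.2, with build mm10. The annotation, the counter and the strand setting are not given in the sources used here. Per the labels' protocols, 100 ng of RNA gave TruSeq libraries read as single 75 bp reads. The deposited signal, divided by its step per library, gave whole reads for 100% of values, equal to the raw counts of features with at least 10 counts. Features without an identifier held at most 0.0511% of a library's counts; they entered the library totals and no test except in the fit without a filter.

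The genotypes were compared by edgeR 4.0.16 on the counts (quasi-likelihood fit; R 4.3.3; TMM, filterByExpr, genotype as the only term, two-sided, Benjamini-Hochberg over 11408 genes, threshold 0.05). The biological coefficient of variation was 13.0%. Replicate pairs differed by a chi-square per degree of freedom of 5.79 to 175, so none was a repeat deposit. Coordinates, exon lengths and GC content are from GENCODE M21 on GRCm38, the assembly also called mm10, matched by identifier for 16094 of 16111 genes. Alternatives were RLE and upper-quartile scaling, no filter, DESeq2 1.42.0, limma-voom (limma 3.58.1), the replicate number as a block, thinning to the smallest total and each library left out. GC offsets (lowess, span 0.3), alone and with the block, were added after seeing the data. Fits were tested on simulated data. Named genes are the 10 members, called genes of each pathway list (up to 4 a direction), the 2 genes most like each called member, and Ahrr; a few results that these rules name are not reported here. Ikbkb, Ikbkg, Chuk, Cyld, Otud7b and Otulin were named for their roles, after their values were seen. The members and lists were chosen with earlier results of these data known. Reads carry no molecular identifiers, so counts may include copies, and few counts limit Nfkbie most among the members. Plots were made with Python 3.11.15 and matplotlib 3.10.9.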

Additional observations from a re-analysis of the deposited data

How the results depend on the processing

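Of 583 values of 39 results under 15 alternatives, 424 had the same sign and the same call (for counts, a value within 1.5 times), 76 lost their call, 22 changed sign and 61 counts moved further. The cause was not tested unless stated. Among the members depth limits Nfkbie and Nfkbiz most (23 and 48 counts in the shallowest library), and among other genes named Ccl2, Tnf and Ahrr had fewer (down to 4, 7 and 8 counts). Ccl2 and Tnf gave no value after thinning.

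Same-numbered libraries come from different mice, and their deviations correlated at -0.17, 0.07 and 0.13 for numbers 1, 2 and 3, none highest with its own number. The number as a block gave 666 higher and 724 lower genes against 1097 and 1135, with the pairing not given by the design. With the block 1 of the 10 members was lower (against 3), of the IKK list 1 was higher (against 3) and 1 lower (against 2), of the other brakes 1 was higher (against 0) and of the targets 1 was higher (against 4). The block with GC offsets gave 634 higher and 642 lower genes and 1 member lower. Thinning, which leaves fewer reads, gave 589 and 577 genes, 1 member lower, 1 higher in each of the IKK list, the other brakes and the targets. Without a filter 1 member was lower, 1 of the IKK list lower, 1 of the other brakes higher and 9 targets lower (against 4), and 8 targets had too few counts for the filter. With DESeq2 1 member and 1 gene of the IKK list were lower. With GC offsets 1 member was lower, 4 of the IKK list lower and 1 of the other brakes higher, and limma-voom also called 1 of these higher.

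Leaving out each library in turn gave 327 to 1889 genes higher and 367 to 1968 lower, the fewest without WT replicate 1 and the most without Ahrr-deficient replicate 1. Members lower ran from 1 to 3, the IKK list from 1 to 3 higher and 0 to 4 lower, the other brakes from 0 to 2 higher and 1 to 2 lower, and the targets from 1 to 6 higher and 4 to 7 lower.

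Sign changes among members concerned values near 0 that were never called. Nfkbiz (0.05) came to -0.010 with DESeq2, -0.068 with the block, -0.15 with thinning, -0.057 with the block and GC offsets, -0.18 without WT replicate 1 and -0.19 without Ahrr-deficient replicate 2. Nfkbia (-0.05) came to 0.014 with thinning, 0.015 with GC offsets, 0.025 with the block and GC offsets, 0.020 without WT replicate 3 and 0.028 without Ahrr-deficient replicate 2. Nfkb1 (0.05) came to -0.028 with GC offsets, -0.024 with the block added, and between -0.0088 (without WT replicate 2) and 0.12 (without WT replicate 3) with 1 library left out. Nfkbie (-0.04) came to 0.064 with GC offsets, 0.038 with the block added, 0.0059 without Ahrr-deficient replicate 3, and between -0.11 (without WT replicate 1) and 0.019 (without WT replicate 2) with 1 library left out. Nfkb2 (-0.17) and Tnip1 (-0.14) came to 0.017 and 0.019 with GC offsets, and to 0.020 and 0.026 with the block added. Upper-quartile scaling moved the higher share of called genes from 49.1% to 41.8%.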
